A study of Mus musculus with 6 samples.

Results

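The genes described here are 36 neutrophil and granulocyte precursor genes, chosen by name as genes of granulocyte precursors, of neutrophil granules and of the neutrophil surface. Of these, 34 had an array probe whose RefSeq accession matched, and all 34 were well above background on every array. They stand among 14851 genes tested. Cebpe and Ly6g had no matched probe. Each gene is represented by its brightest probe.

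Total RNA came from femoral bone marrow cells of male ISAM mice (Epo-/-::3.3K-Epo3'-Tg458) of mixed strain, all 10 weeks old. Every sample, controls included, therefore lacks the endogenous Epo gene and carries the Epo transgene. As background, this transgene supports the embryo but leaves the adult short of erythropoietin and anemic. No sample from a mouse with normal Epo was part of the set, so all levels belong to anemic marrow. Recombinant human erythropoietin (rHuEPO) had been injected intraperitoneally at 3000 U/kg, 6 h earlier, for 3 samples. The control arm held 1 untreated sample and 2 samples collected 6 h after phosphate-buffered saline (PBS). Whether each sample is 1 animal is not stated, so the p-values reflect the spread of these 6 samples, which may be technical in part.

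Neutrophils are made in the marrow from granulocyte-monocyte progenitors. At the promyelocyte stage the cells fill primary (azurophil) granules with myeloperoxidase and serine proteases, at the myelocyte stage they make secondary granule proteins such as lactoferrin, and later they add gelatinase, surface receptors and the cytosolic S100 proteins. The transcription factors C/EBPα, PU.1, GFI1 and C/EBPε direct these steps. Because each granule set is transcribed at its own stage, the sets serve as stage markers in whole marrow.

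The array 75th percentile signal lay between 220.7 and 264.0. Array pairs correlated at 0.9752 to 0.989 over the 41157 probes with a value on every array, dim probes included. The rHuEPO arrays had 46.2% to 46.6% of gene spots well above background and the control arrays 48.6% to 50.5%. The untreated sample and rHuEPO replicate 1 were on slide 1, and the other 4 samples were on slide 2. Levels below are log2 of the processed signal minus that array's 75th percentile, so a value of 3 lies 3 doublings above it. Levels are compared only between samples for the same probe.

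The 4 primary granule genes moved together from array to array, and their promoters are shown for that reason. This was not particular to them, since Ltf, Ngp, Hp, Pglyrp1, Ms4a3, S100a8 and Ncf4 were high and low in the same samples. Elane and Prtn3 are neighbours on chromosome 10. The sequences are the 250 bases before the start of each gene in RefSeq (build GRCm38.p6), read 5′ to 3′ on the gene's own strand, with the letters AGGAAGT in capitals. This motif, searched on both strands, is of the type bound by PU.1 and other ETS factors. The windows are chr10:79886062-79886311 (plus strand) for Elane, chr10:79879417-79879666 (plus strand) for Prtn3, chr11:87793534-87793783 (plus strand) for Mpo and chr14:56102575-56102824 (minus strand) for Ctsg.
Elane: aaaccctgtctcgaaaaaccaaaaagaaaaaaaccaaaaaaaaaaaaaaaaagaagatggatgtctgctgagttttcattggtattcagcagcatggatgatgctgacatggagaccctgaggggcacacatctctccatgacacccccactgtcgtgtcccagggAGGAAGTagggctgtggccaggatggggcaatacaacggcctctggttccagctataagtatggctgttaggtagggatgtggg
Prtn3: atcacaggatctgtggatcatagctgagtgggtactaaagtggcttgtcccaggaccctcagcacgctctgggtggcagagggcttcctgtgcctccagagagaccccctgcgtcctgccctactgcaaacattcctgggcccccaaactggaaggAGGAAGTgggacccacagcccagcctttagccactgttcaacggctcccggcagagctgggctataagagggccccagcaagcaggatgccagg
Mpo: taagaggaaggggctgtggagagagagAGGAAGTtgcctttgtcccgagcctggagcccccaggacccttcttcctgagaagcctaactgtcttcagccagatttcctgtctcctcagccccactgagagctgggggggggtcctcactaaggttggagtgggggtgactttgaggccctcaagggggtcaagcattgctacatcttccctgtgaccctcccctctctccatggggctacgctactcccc
Ctsg: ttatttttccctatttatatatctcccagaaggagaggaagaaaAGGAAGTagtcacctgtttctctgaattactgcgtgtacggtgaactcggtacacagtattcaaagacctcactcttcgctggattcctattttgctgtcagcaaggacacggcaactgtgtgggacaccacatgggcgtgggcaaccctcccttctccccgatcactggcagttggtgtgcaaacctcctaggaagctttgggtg

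The motif starts 84 bases before the gene start in Elane, 94 in Prtn3, 223 in Mpo and 206 in Ctsg. It was present in 9 of the 30 member promoters found in the table (30%) and in 7.8% of all 27025 promoters of the same length. A second motif, TTNNNCAA, of the type bound by C/EBP factors, was present in 18 of 30 member promoters (60%) and in 33.6% of all promoters. It was in none of the 4 windows printed, and the motifs overlapped in none of these windows. Among the other members named above that shared the movement, the first motif was found only for S100a8. Both motifs were chosen with these sequences in view, and a match is only a description of the letters.

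The main comparison set the 3 rHuEPO samples against the 3 controls and asked whether granulocyte transcripts had changed by 6 h. No member passed: 0 of 34 had an adjusted p under 0.05 (limma, Benjamini-Hochberg over all genes), beside 0.0673% of all genes tested. At an unadjusted p under 0.05 the count was also 0 of 34, beside 4.96% of all genes, and the smallest adjusted p of any member was 0.9999. Differences (rHuEPO minus control, log2) ran from -0.54 for Cxcr4 to 0.24 for Fpr2, with a median of -0.040 beside -0.015 for all genes. The estimate was above 0 for 12 of 34 members, beside 47.3% of all genes. The difference was under 0.1 in size for 20 of the 34 genes.

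For 34 of 34 members the rHuEPO samples overlapped the control samples on the brightest probe. Among all genes, 5.01% had all rHuEPO arrays above all controls and 5.39% had them all below. The rHuEPO mean lay inside the control range for 30 members, beside 68.3% of all genes, and outside it for Camp, Padi4, Cxcr4 and Cybb. The 95% interval of the difference stayed within 2-fold in either direction for 29 of 34 members (85.3%, beside 76.0% of all genes). For Elane, Prtn3, Cxcr2, Cxcr4 and Cybb it reached 2-fold, so for these genes the interval held a change of that size. Fewer cells of a type and less RNA per cell cannot be told apart in whole marrow.

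**Figure D1:**
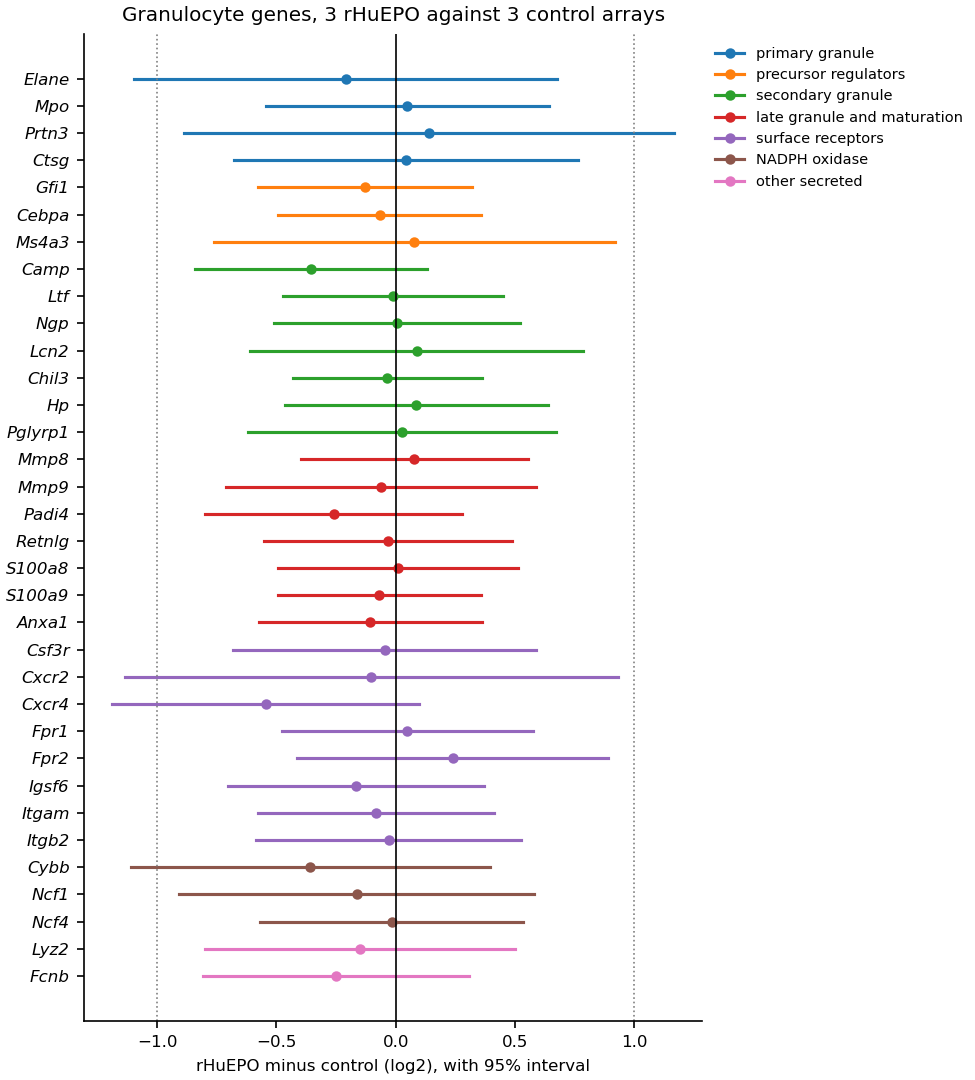
Difference in log2 level, rHuEPO minus control (x axis), for the 34 measured members, coloured by group. Points are limma estimates from 3 against 3 arrays, bars are 95% intervals and dotted lines mark 2-fold. Every interval crosses 0, from Cxcr4 at -0.54 to Fpr2 at 0.24.

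Primary granule genes showed a wide spread within each arm, and none was called. Elane, which encodes neutrophil elastase, read 3.30 in the untreated sample, 4.38 and 3.43 in the PBS samples and 2.88, 3.65 and 3.95 in the rHuEPO samples. PBS replicate 1 was the highest and rHuEPO replicate 1 the lowest, with the other samples interleaved. The difference was -0.21 ± 0.38 (SE; 95% interval -1.10 to 0.68).

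Prtn3 encodes proteinase 3 and read 3.90 in the untreated sample, 5.43 and 4.26 in the PBS samples and 4.08, 4.85 and 5.09 in the rHuEPO samples. Its lowest and highest samples were both controls, which spanned 1.53, the largest control range of the 34 members. The difference was 0.14 ± 0.44 (SE; 95% interval -0.89 to 1.17). Mpo, the gene of myeloperoxidase, which makes hypochlorous acid, read 8.48 in the untreated sample, 9.05 and 8.40 in the PBS samples and 8.42, 8.62 and 9.03 in the rHuEPO samples. Here PBS replicate 1 and rHuEPO replicate 3 were nearly equal at the top and the other 4 samples were lower. The difference was 0.048 ± 0.25. Ctsg, the gene of cathepsin G, read 7.87 in the untreated sample, 8.77 and 8.10 in the PBS samples and 7.85, 8.34 and 8.68 in the rHuEPO samples. The order resembled that of Mpo, with PBS replicate 1 and rHuEPO replicate 3 highest, and the difference was 0.042 ± 0.31. Set against each gene's own mean over the 6 arrays, all 4 primary granule genes were below it in the untreated sample, PBS replicate 2 and rHuEPO replicate 1, and all 4 were above it in PBS replicate 1 and rHuEPO replicate 3. Ltf, Ngp, Hp, Pglyrp1, Ms4a3, S100a8 and Ncf4, from other groups, had the same pattern.

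None of the 3 measured precursor regulators was called between the arms. Gfi1, a transcriptional repressor needed for neutrophil production, read 1.97 in the untreated sample, 2.17 and 1.71 in the PBS samples and 1.66, 1.87 and 1.93 in the rHuEPO samples. All 3 rHuEPO values lay between or just below the controls, and the difference was -0.13 ± 0.19 (SE; 95% interval -0.58 to 0.32). Cebpa encodes C/EBPα, the factor that starts granulocyte commitment, and its difference was -0.068 ± 0.18. Ms4a3 marks granulocyte-monocyte progenitors and read 5.22 in the untreated sample, 6.18 and 5.52 in the PBS samples and 5.16, 5.69 and 6.32 in the rHuEPO samples. The highest value was rHuEPO replicate 3, the lowest was rHuEPO replicate 1, and the difference was 0.078 ± 0.36.

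Of the secondary granule genes, Camp, which encodes the antimicrobial peptide cathelicidin, had the largest difference in size. It read 6.04 in the untreated sample, 6.40 and 5.87 in the PBS samples and 5.54, 5.79 and 5.91 in the rHuEPO samples. The rHuEPO samples lay low, but rHuEPO replicate 3 was above PBS replicate 2, so the arms overlapped. The difference was -0.36 ± 0.21 (SE; 95% interval -0.84 to 0.13). Ltf, the gene of iron-binding lactoferrin, differed by -0.011 ± 0.20. Ngp, the gene of a cathelicidin-like neutrophil granule protein, differed by 0.0064 ± 0.22. Lcn2, which encodes lipocalin-2 (a protein that binds bacterial siderophores), read 5.46 in the untreated sample, 6.44 and 6.04 in the PBS samples and 5.68, 6.27 and 6.26 in the rHuEPO samples. The slide 1 sample was the lowest in each arm, and the difference was 0.088 ± 0.30.

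For the other three, differences were under 0.1 in size. Chil3, a chitinase-like protein (Ym1) with close paralogs whose RNA may reach the same probe, differed by -0.035 ± 0.17 and had the smallest range over the 6 arrays among secondary granule genes. Hp, the gene of haptoglobin, which binds free hemoglobin, differed by 0.086 ± 0.23. Pglyrp1, a peptidoglycan recognition protein, differed by 0.026 ± 0.27.

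Among late granule and maturation genes, Padi4 had the largest difference. It encodes the peptidylarginine deiminase that citrullinates histones when neutrophil chromatin is released, and it read 6.13 in the untreated sample, 6.72 and 6.05 in the PBS samples and 6.09, 6.18 and 5.86 in the rHuEPO samples. PBS replicate 1 stood above the other 5 samples, which lay close together, and the difference was -0.26 ± 0.23 (SE; 95% interval -0.80 to 0.28). Mmp9, the gene of gelatinase B, read 5.82 in the untreated sample, 5.78 and 5.23 in the PBS samples and 5.92, 5.65 and 5.09 in the rHuEPO samples. In each arm the slide 1 sample was highest on this probe, and the difference was -0.061 ± 0.28. On a second Mmp9 probe the highest control was PBS replicate 1, at 5.34 beside 5.07 in the untreated sample. The used Mmp9 probe is printed 10 times on each array, with 9 or 10 usable spots. The SD of the level over those spots was 0.0413 to 0.0842 within an array. The SD over samples was 0.33 for the 3 controls and 0.43 for the 3 rHuEPO samples.

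Mmp8, the gene of neutrophil collagenase, differed by 0.078 ± 0.20. Retnlg, a resistin-like gene of mature neutrophils, had an SD of 0.0313 over the 3 rHuEPO samples and 0.38 over the controls, and its difference was -0.034 ± 0.22. S100a8 and S100a9 are neighbours on chromosome 3 and encode the subunits of calprotectin, a calcium- and zinc-binding protein. The difference was 0.011 ± 0.21 for S100a8. For S100a9 it was -0.069 ± 0.18. Anxa1, the gene of annexin A1, which dampens neutrophil migration, differed by -0.11 ± 0.20.

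**Figure D2:**
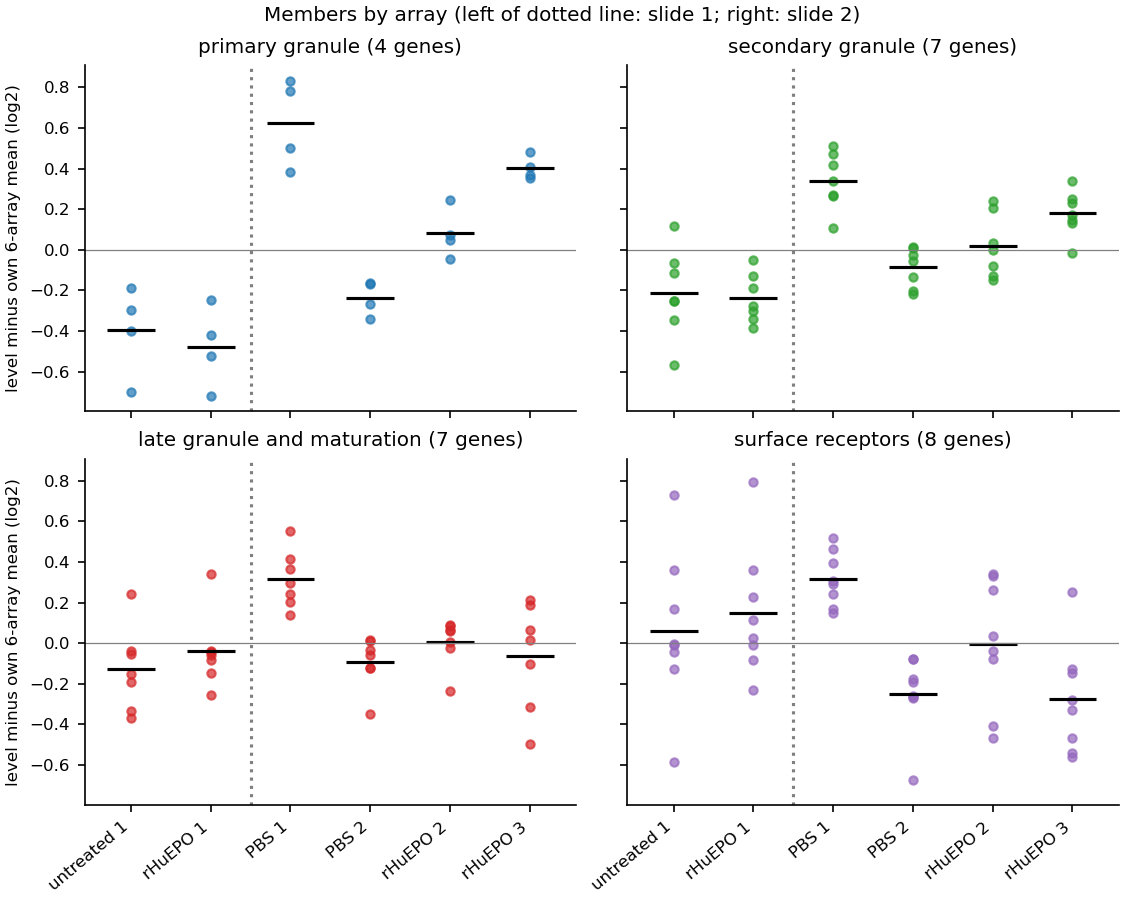
Level of each member minus its own mean over the 6 arrays (log2, y axis) by sample (x axis) for primary granule, secondary granule, late and receptor genes. Points are genes, bars are group means and a dotted line separates slide 1 from slide 2. The primary granule mean is -0.40 in the untreated sample, 0.62 in PBS replicate 1 and 0.40 in rHuEPO replicate 3, so samples of both arms lie high and low.

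Surface receptors held the members with the lowest and highest differences. Cxcr4 encodes the CXCL12 receptor that holds neutrophils in the marrow, and other marrow cells, B-lineage cells among them, also make it. It read 2.34 in the untreated sample, 1.78 and 1.53 in the PBS samples and 1.73, 1.15 and 1.15 in the rHuEPO samples. The untreated sample was highest, rHuEPO replicates 2 and 3 were lowest, and rHuEPO replicate 1 lay among the PBS samples. The difference was -0.54 ± 0.27 (SE; 95% interval -1.19 to 0.10), with an unadjusted p of 0.0859 (limma). Within slide 1 it was -0.61 and within slide 2 it was -0.51. With slide as a block, limma gave Cxcr4 an unadjusted p of 0.0058 and an adjusted p of 0.289, still above the threshold. In that fit 0 of 34 members were called, beside 0.0741% of all genes, and Cxcr4 was the 1 member with an unadjusted p under 0.05, beside 11.3% of all genes. All 34 intervals then stayed within 2-fold, but the share of all genes doing so in that fit was not counted. Over all genes the block raised the share with an unadjusted p under 0.05 (limma) from 4.96% to 11.3%.

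A second Cxcr4 probe read 1.89 in the untreated sample, 1.71 and 1.26 in the PBS samples and 1.13, 1.16 and 1.12 in the rHuEPO samples. On this probe every rHuEPO sample lay below every control (limma unadjusted p = 0.053), beside 5.39% of all genes on their brightest probes. The B-cell list, set against its own mean over the 6 arrays, averaged 0.73, -1.43 and 0.98 in the untreated and PBS samples and 0.21, -0.33 and -0.16 in the rHuEPO samples. Its part in the Cxcr4 values was not tested.

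Fpr2, a formyl peptide receptor that senses bacterial and host peptides, read 4.86 in the untreated sample, 5.74 and 5.36 in the PBS samples and 5.21, 5.78 and 5.69 in the rHuEPO samples. The slide 1 sample was the lowest in each arm, and the difference was 0.24 ± 0.28 (SE; 95% interval -0.41 to 0.89). Its neighbour on chromosome 17, Fpr1, the high-affinity receptor of formyl peptides, differed by 0.048 ± 0.22. These paralogs are similar in sequence, and cross-hybridisation between them was not tested. Cxcr2, the receptor for the chemokines that draw neutrophils out of the marrow, read 3.60 in the untreated sample, 3.70 and 2.57 in the PBS samples and 4.03, 2.83 and 2.70 in the rHuEPO samples. Values in both arms fell into a high and a low range, and the difference was -0.10 ± 0.44 (SE; 95% interval -1.14 to 0.93).

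Csf3r encodes the receptor for G-CSF, the main growth factor of neutrophil production, and its difference was -0.046 ± 0.27. Igsf6, an immunoglobulin superfamily gene of myeloid cells, differed by -0.17 ± 0.23. Itgam and Itgb2 encode the chains of the integrin Mac-1, used for adhesion and complement uptake. Itgam differed by -0.081 ± 0.21. For Itgb2 the difference was -0.030 ± 0.24.

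The NADPH oxidase makes superoxide in the phagosome. Cybb, which encodes its catalytic subunit gp91phox, read 2.80 in the untreated sample, 3.60 and 2.78 in the PBS samples and 2.17, 2.99 and 2.95 in the rHuEPO samples. PBS replicate 1 was highest and rHuEPO replicate 1 lowest, with the rest between 2.78 and 2.99. The difference was -0.36 ± 0.32 (SE; 95% interval -1.11 to 0.39). For the cytosolic subunits the differences were -0.16 ± 0.32 for Ncf1 (p47phox) and -0.017 ± 0.23 for Ncf4 (p40phox). Lyz2, the gene of lysozyme M, which monocytes and macrophages also make, differed by -0.15 ± 0.28. Fcnb encodes ficolin-B, a lectin of myeloid precursors, and read 5.16 in the untreated sample, 5.26 and 4.53 in the PBS samples and 4.83, 4.83 and 4.54 in the rHuEPO samples. The untreated sample and PBS replicate 1 were highest, PBS replicate 2 was lowest by a small margin, and the difference was -0.25 ± 0.24 (SE; 95% interval -0.81 to 0.31).

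By group, the median difference was 0.045 for 4 primary granule genes, -0.068 for 3 precursor regulators, 0.0064 for 7 secondary granule genes, -0.061 for 7 late genes, -0.064 for 8 receptors, -0.16 for 3 oxidase genes and -0.20 for the 2 other secreted proteins. The stages were also set against each other within each sample. The primary granule mean minus the late mean, each relative to its own 6-array mean, was -0.27 in the untreated sample, 0.31 and -0.14 in the PBS samples and -0.44, 0.075 and 0.46 in the rHuEPO samples. Both arms held samples on either side of 0, and rHuEPO replicates spanned a wider range than the controls. The secondary granule mean minus the late mean was -0.085, 0.025 and 0.0066 in the controls and -0.20, 0.011 and 0.24 in the rHuEPO samples, again with the controls inside the range of the rHuEPO samples. In both contrasts the slide 1 sample (untreated, or rHuEPO replicate 1) was the lowest of its arm.

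A difference shared by all measured members lay between the 2 PBS samples. PBS replicate 1 read above PBS replicate 2 for 34 of 34 members, beside 53.4% of all genes. The median difference was 0.52, a 1.43-fold difference, beside 0.035 for all genes. It ran from 0.10 for Chil3 to 1.17 for Prtn3. PBS replicate 1 was the highest of the 6 samples for 23 members, beside 25.7% of all genes. With quantile scaling the count was 32 of 34 and the median 0.34. With median scaling, with normexp after extreme local backgrounds were replaced, and in the deposited value table it was 34 of 34, with a median of 0.51 each. With normexp on all local backgrounds, 11 of them extreme in PBS replicate 2, it was 34 of 34 with a median of 1.86, beside 0.26 for all genes. With 1 sample on each side this difference has no replicate check.

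**Figure D3:**
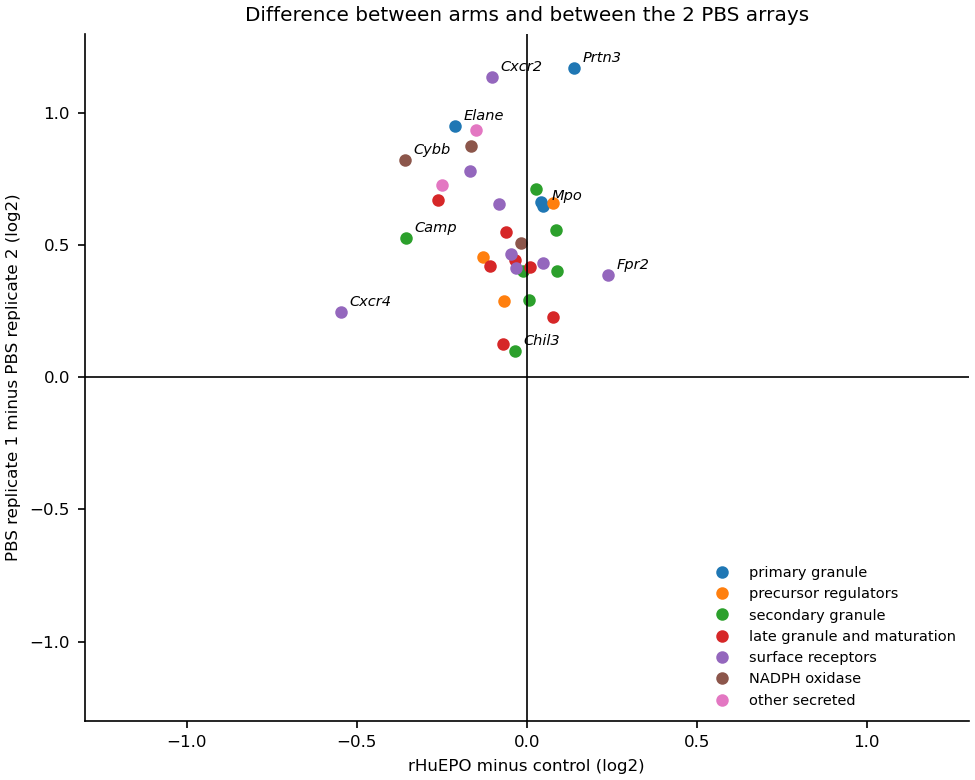
Difference between the arms (x axis, rHuEPO minus control, log2) and between PBS replicates 1 and 2 (y axis, log2) for the 34 members on equal scales. PBS samples enter both axes. All points lie above 0 on the y axis, up to 1.17 for Prtn3, while x values lie between -0.54 and 0.24.

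Markers of other marrow cells also differed between these 2 samples. All 7 B-cell markers measured were lower in PBS replicate 1, with a median difference of -2.35, or 5.11-fold. Of these, 6 were well above background on every array, but Pax5 was so on only 3. In PBS replicate 1 Pax5 read -4.87, below the lowest level well above background on that array, -3.73. Cd79a, of the B-cell receptor, differed by -2.31. All 8 erythroid markers were lower there, with a median of -0.72 and Klf1 (the erythroid transcription factor) at -0.82. All 6 stroma and endothelium markers were lower as well, with a median of -0.50, as were 6 of 7 macrophage markers, with a median of -0.74. All 7 monocyte markers were higher, with a median of 0.82, Ly6c2 at 0.61 and Ccr2 at 0.79. Of 8 eosinophil, basophil and mast cell markers 7 were lower, with a median of -0.23. Of 5 megakaryocyte markers 4 were higher, with a median of 0.26. The 6 T and NK cell markers were mixed, with 4 lower and 2 higher.

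The B-cell mean, Pax5 included, was -1.43 in PBS replicate 1 and between -0.33 and 0.98 in the other 5 samples. The granulocyte mean was 0.38 in PBS replicate 1 and between -0.18 and 0.0071 in the others. The first 2 markers of each list were well above background on all 6 arrays, except Lepr, on 5. Of the later markers, Pax5 was so on 3 arrays and Siglec1 on 5. The part of these other cells in the members' values was not tested. Between the arms, 0 of the markers in any list were called by limma after adjustment, beside 0.0673% of all genes, with list medians between -0.23 for B cells and 0.49 for erythroid cells.

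**Figure D4:**
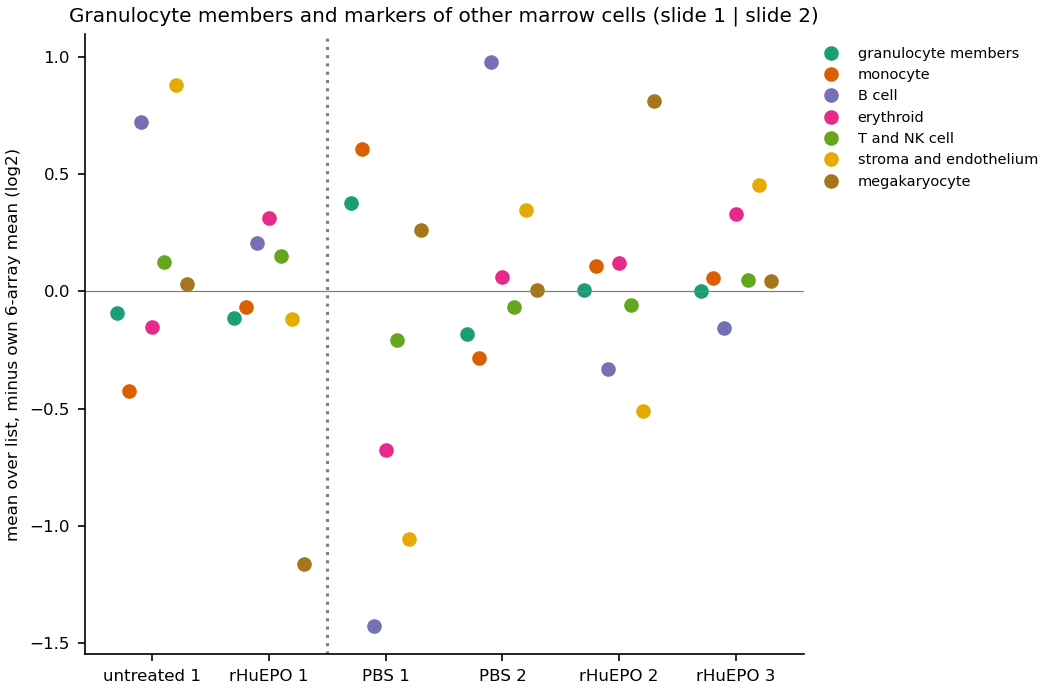
Mean level of the 34 members and of marker lists of other marrow cells, each gene relative to its own 6-array mean (log2, y axis), by sample. A dotted line separates slide 1 from slide 2. In PBS replicate 1 the members lie at 0.38 and the B-cell markers at -1.43.

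With PBS as the only control, limma called 0 of 34 members, beside 0.0202% of all genes, and at an unadjusted p under 0.05 it listed 0 of 34, beside 3.99%. The estimate was above 0 for 6 of 34, beside 40.1% of all genes, and the median difference was -0.12, beside -0.060. These differences ran from -0.49 for Cybb to 0.052 for Cxcr2. Both PBS samples were on slide 2 and rHuEPO replicate 1 was on slide 1, so slide enters this contrast. On slide 2 alone, a fit chosen after seeing the data, the median was -0.080, beside -0.019 for all genes. The untreated sample against PBS gave 0 of 34, beside 0% of all genes, and 0 of 34 at an unadjusted p under 0.05, beside 5.43%. This fit assumes that the lone untreated sample varies like the other groups. That sample was on slide 1 and both PBS samples were on slide 2. Without a slide term in the fit, this contrast cannot tell untreated against PBS from slide. Its differences ran from -0.95 for Prtn3 to 0.68 for Cxcr4, with a median of -0.21, beside -0.11 for all genes, and 9 of 34 were above 0, beside 40.8%.

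Slide and scan fell together, so they form 1 batch with 2 levels. With the arm held, slide 2 minus slide 1 gave 1 of 34 members called, beside 10.6% of all genes. That member was Cxcr4, with a difference of -0.63 ± 0.14 (limma adjusted p = 0.0442), where 3.44% of all genes were called lower. When the untreated sample or any 1 rHuEPO sample was left out, 0 members were called, and the fits called 0 to 4 of all 14851 genes. Without PBS replicate 1 the called members were Lcn2, Fpr2, Cxcr2, Ncf1 and Cxcr4, beside 16.2% of all genes. Without PBS replicate 2 they were Lcn2, Prtn3, Elane and Cybb, beside 10.3%. At an unadjusted p under 0.05 the fit listed 9 of 34 members, 7 of them higher on slide 2, beside 33% of all genes, and 25 of 34 were above 0, beside 60.4%.

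For all 4 primary granule genes the slide estimate was above 0, with a median of 0.69. That median was 0.47 with quantile scaling and 0.81 with median scaling. None of the 4 passed after adjustment. Prtn3 had the largest value, 0.92 ± 0.32 (limma adjusted p = 0.113). The 7 secondary granule genes had a median of 0.29, but 0.033 with quantile scaling. Over all members the median was 0.21, 0.34 with median scaling and -0.048 with quantile scaling, while that of all genes was 0.11, 0.24 and 0.035. The members' direction between slides therefore flipped with the scaling.

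Several members have more than 1 tested probe, and the probes did not always move alike. For 10 members with several probes, slide differences had opposite signs in 5, beside 45.1% of the 3798 genes with several probes. The used Cybb probe differed between slides by 0.60 ± 0.25. The other Cybb probe differed by -1.53 ± 0.21 (limma adjusted p = 0.0197 over all tested probes, as in this paragraph and the next). That second probe read 2.08 and 1.97 in the slide 1 samples and 0.26 to 0.95 on slide 2.

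The second Cxcr4 probe differed between slides by -0.20 ± 0.19 (limma adjusted p = 0.481), a smaller estimate than on the used probe. Itgam had a difference of 0.016 ± 0.21 on the used probe and -1.14 ± 0.27 on the other (limma adjusted p = 0.0425). Cxcr2 had -0.87 ± 0.35 on the used probe and 0.73 ± 0.28 on a probe that was well above background on 5 of the 6 arrays. For Fpr2 both estimates were above 0, at 0.61 ± 0.16 on the used probe and 0.80 ± 0.15 on the other (limma adjusted p = 0.0267). Between the arms, probes of 1 member had opposite signs in 3 of 10, beside 30.1% of the genes with several probes. These members were Cxcr2, Padi4 and Cebpa. Cxcr2 had -0.10 ± 0.44 on the used probe and 0.83 ± 0.37 on the dimmer one. Padi4 had -0.26 on the used probe and -0.47 and 0.0078 on the others. Cebpa had -0.068 on the used probe and 0.095 on the other.

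**Figure D5:**
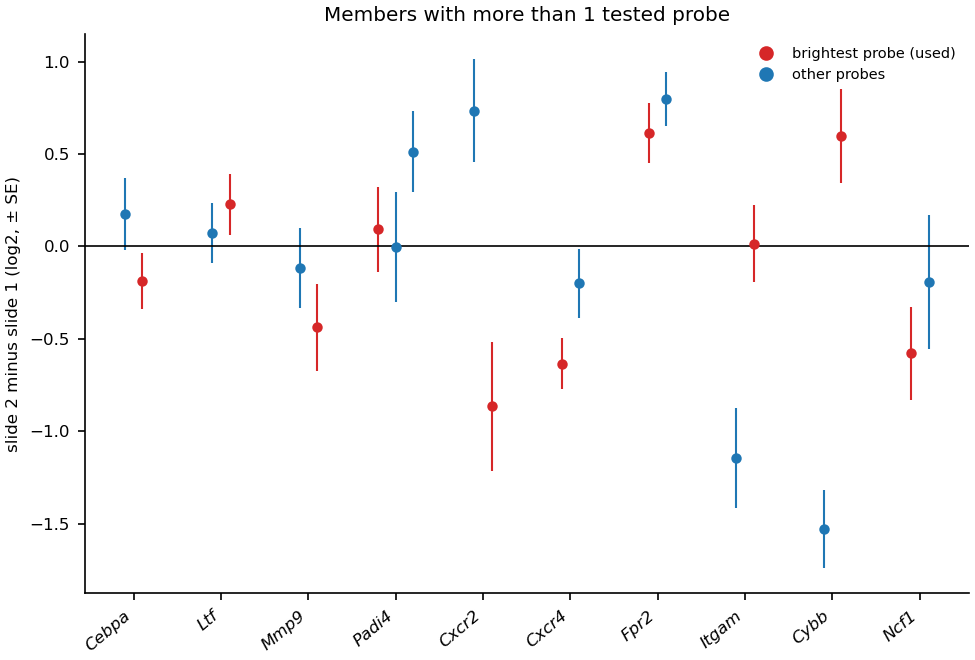
Slide 2 minus slide 1 (log2, with the arm held; bars are ± SE) for each tested probe of the 10 members with more than 1 probe. Red marks the brightest probe, used for the gene, and blue the others. The Cybb probes lie at 0.60 and -1.53, on opposite sides of 0.

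Other genes of the same pathway were read from 4 lists. Of 18 measured genes of other granule proteins and protease handling, 0 were called between the arms, with a median of 0.053. Of these, Stfa3, a cystatin-like stefin whose paralogs are near-identical, differed by -0.48 ± 0.26, and Chil1, a chitinase-like protein, differed by 0.25 ± 0.26. Of 15 granulopoietic factors and receptors (Csf3r among them), 0 were called, with a median of -0.046. Csf2rb2, a receptor chain for IL-3 that is a close copy of Csf2rb, differed by 0.43 ± 0.30. Irf8, the factor that favours monocytes over granulocytes, differed by 0.19 ± 0.17. Its rHuEPO samples all lay above the controls, beside 5.01% of all genes.

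Of 5 other oxidase and bactericidal genes 0 were called, with Slc11a1 (the phagosome metal transporter NRAMP1) at 0.28 ± 0.19. Of 22 other genes of mature neutrophils 0 were called. The chemokine gene Ccl6 read 5.97 in the untreated sample, 6.08 and 6.96 in the PBS samples and 5.90, 5.36 and 5.06 in the rHuEPO samples. Every rHuEPO sample was below every control, beside 5.39% of all genes. The difference was -0.90 ± 0.33, with an unadjusted p of 0.0294 and an adjusted p of 0.908 (limma). Within slide 1 it was -0.0785 and within slide 2 it was -1.31. Ccl6 was the 1 gene of its list with an unadjusted p under 0.05, beside 4.96% of all genes. Il1r2, the decoy receptor of interleukin-1, differed by 0.45 ± 0.47. Bpi, Csf3, Nos2 and Cxcl2 were not well above background on any array, and Olfm4 had no matched probe.

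The same lists held genes that differed between the slides. Limma called 2 of the 18 granule genes, 1 of the 15 factors and receptors, 0 of the 5 oxidase genes and 5 of the 22 mature neutrophil genes, all higher on slide 2, beside 7.2% of all genes. Among them, Ctsc, the protease that activates the granule serine proteases, was higher by 1.17 ± 0.23 (limma adjusted p = 0.0378). Lrg1, a leucine-rich glycoprotein of neutrophil granules, was higher by 1.08 ± 0.18. The others were Csf2rb, counted in both of its lists, Il1r2, Ifitm6, Tlr2 and Tlr4. Judged by most of its repeat spots, Tlr4 was well above background on the 4 arrays of slide 2, through which it passed the filter, and on neither array of slide 1. Among the 21 mature neutrophil genes well above background on all 6 arrays, 4 were called.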

How the data were processed

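Cy3-labelled RNA of 6 samples was hybridised to one-colour Agilent arrays, 1 per sample, per the labels. The deposited scanner files hold intensity values and flags. Per the file headers they were made by Agilent Feature Extraction (version 10.7.3.1), whose processed signal has the local background subtracted. A value table of log2 values was also deposited by the authors. Against the scanner files it matched 75th-percentile scaling with each probe's median set to 0 (lowest slope 0.9988), which settles its scale, centring and direction. Its column medians were -0.104 (untreated), -0.0571 and -0.0978 (PBS) and 0.117, 0.0112 and 0.0868 (rHuEPO).

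Control spots and outlier spots were left out, and no spot was saturated. Each level is log2 of the processed signal relative to the 75th percentile of its array. A probe was tested when well above background on at least 3 of 6 arrays (19588 of 41174 probes, with 17 left out for a missing value), and a gene was read from its brightest tested probe. Names came from RefSeq (GRCm38.p6) by accession, with 26690 probes matched (64.8%). The array design uses another build, so no gene coordinates are given apart from the RefSeq promoters.

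Tests used limma 3.58.1 in R 4.3.3 (lmFit and eBayes, two-sided, Benjamini-Hochberg over 14851 genes, threshold 0.05) and were tested on simulated data. The simulated data had no slide effect and held changes larger than any member's difference between the arms. They therefore show nothing about changes as small as those of the members. Fits compared rHuEPO with the 3 controls, rHuEPO and untreated with PBS in a 3-group fit, and the slides with the arm held. The labels number PBS and rHuEPO samples alike. Same-numbered samples did not deviate together (r = -0.072 and -0.16 over genes, 2 pairs). This cannot settle whether they were paired. The 2 PBS samples deviate from their mean as mirror images, and the replicate 1 samples lay on different slides. The members and lists were chosen with earlier results of these data known, and no test was run over a list. All 36 members are named. Those with the smallest p or the largest difference in their group, or called in any fit, are given in full, with some others. Pathway lists give the 2 genes with the smallest p, and the first 2 markers of a list stand for it, although a few such genes are not reported here.

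Alternatives were quantile and median scaling, normexp with an offset of 50 (on median spot signals), filtering on all 6 arrays or not at all, the deposited table, averaging all tested probes of a gene, a block for slide or for replicate number, PBS as the only control and leaving out each array.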

Additional observations from a re-analysis of the deposited data

How the results depend on the processing

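In the main comparison 0 of 34 members were called under every alternative and every left-out array, with limma. The lowest adjusted p of any member was 0.289, for Cxcr4 with slide as a block, and it was 0.327 with no filter and at least 0.626 elsewhere. Slide 2 alone, and normexp after local backgrounds over 10 times the array median were set to that median, were chosen after seeing the data, as was leaving out arrays for the other comparisons. Normexp as first run was distorted in PBS replicate 2, where 11 spots had a local background up to 62790.5 beside a median of 33. It moved the median difference of all members to 0.39, of primary granule genes to 0.54, of secondary granule genes to 0.48 and of late genes to 0.39, and after the replacement the median of all members was -0.068. Genes called among all 14851 numbered 10 as reported, 1 with normexp as first run, 1 with no filter, 5 with a filter on all 6 arrays, 3 with PBS as the only control and 1 to 6 with an array left out. With the replicate number as a block (replicate block), 1 gene and 0 members were called.

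Between slides 1 member was called as reported, beside 10.6% of all genes. Counts were 3 with median scaling (19.9% of all genes), 0 with normexp as first run (0%), 2 after the replacement (11.9%), 0 with no filter (15 of 32288 genes), 2 with a filter on all 6 arrays (13%) and 0 to 5 with an array left out (0% to 16.2%). In the comparisons of rHuEPO and of untreated with PBS, 0 members were called under each scaling, background and filter alternative and with each array left out in turn, except the lone untreated sample in the latter comparison.

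No member's sign is a call, and the signs of most depended on the setting. The differences whose sign turned are listed next. With normexp as first run they were Elane 0.13, Gfi1 0.20, Cebpa 0.20, Camp 0.027, Ltf 0.48, Chil3 0.47, Mmp9 0.40, Padi4 0.21, Retnlg 0.39, S100a9 0.41, Anxa1 0.39, Csf3r 0.34, Cxcr2 0.32, Igsf6 0.29, Itgam 0.15, Itgb2 0.32, Cybb 0.0064, Ncf1 0.14, Ncf4 0.49, Lyz2 0.31 and Fcnb 0.25. With PBS as the only control they were Mpo -0.033, Prtn3 -0.18, Ctsg -0.15, Cebpa 0.026, Ms4a3 -0.13, Ngp -0.12, Lcn2 -0.17, Hp -0.018, Pglyrp1 -0.14, Mmp8 -0.087, Mmp9 0.044, S100a8 -0.081, Cxcr2 0.052, Fpr1 -0.0032, Itgb2 0.046 and Ncf1 0.0006. With the replicate block they were Mpo -0.10, Prtn3 -0.084, Ctsg -0.17, Ms4a3 -0.24, Ngp -0.14, Lcn2 -0.056, Hp -0.040, Pglyrp1 -0.042, Mmp9 0.25, S100a8 -0.10, Csf3r 0.25, Cxcr2 0.33, Itgam 0.011, Itgb2 0.20, Ncf1 0.10 and Lyz2 0.082. Median scaling adds the same 0.074 to every gene's difference, so it turned only negative differences smaller in size than that. Scaled this way, they were Cebpa 0.0056, Ltf 0.062, Chil3 0.039, Mmp9 0.012, Retnlg 0.040, S100a9 0.0047, Csf3r 0.028, Itgb2 0.043 and Ncf4 0.057. With normexp after the replacement they were Ltf 0.014, Lcn2 -0.031, Chil3 0.0076, S100a8 -0.071 and Ncf4 0.028. Quantile scaling gave Ngp -0.030, Pglyrp1 -0.0070 and S100a8 -0.025. Slide 2 alone gave Ltf 0.020, Mmp8 -0.048 and Fpr1 -0.0031, and the mean of all tested probes gave Cebpa 0.013 and Cxcr2 0.36. Leaving out 1 array at a time turned the sign of 27 members at least once, with these lowest and highest differences: Elane -0.44 to 0.13, Mpo -0.12 to 0.25, Prtn3 -0.18 to 0.59, Ctsg -0.15 to 0.30, Cebpa -0.19 to 0.026, Ms4a3 -0.22 to 0.36, Ltf -0.10 to 0.12, Ngp -0.12 to 0.15, Lcn2 -0.17 to 0.32, Chil3 -0.12 to 0.031, Hp -0.061 to 0.28, Pglyrp1 -0.14 to 0.29, Mmp8 -0.087 to 0.22, Mmp9 -0.25 to 0.17, Retnlg -0.21 to 0.16, S100a8 -0.092 to 0.16, S100a9 -0.18 to 0.032, Anxa1 -0.21 to 0.050, Csf3r -0.19 to 0.22, Cxcr2 -0.52 to 0.14, Fpr1 -0.10 to 0.20, Igsf6 -0.34 to 0.050, Itgam -0.23 to 0.095, Itgb2 -0.22 to 0.13, Ncf1 -0.46 to 0.0006, Ncf4 -0.16 to 0.18 and Lyz2 -0.39 to 0.074. Gfi1, Camp, Padi4, Cxcr4, Fpr2, Cybb and Fcnb kept their sign with any 1 array left out and under every other alternative but normexp as first run, under which Cxcr4 and Fpr2 also kept theirs. Causes were not tested beyond the replaced backgrounds.

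The number of arrays limits every value, with 3 in each arm and 1 untreated sample. Slide 1 holds 1 sample of each arm, so within it no spread can be had. Names rest on array accessions, and sharing of a probe by close paralogs was not tested.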
